A study of Homo sapiens with 30 samples.

Results

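The 34 genes described here encode proteins of the human centromere and kinetochore, together with a centriole protein that carries the same name prefix. They were chosen by gene symbol from a list, with no expression value in the rule but with earlier results of these data known. All 34 were found in both deposited tables, of 26443 genes with values in each. By role they comprise 5 genes of the centromeric nucleosome, its deposition and the DNA-binding protein CENP-B, 11 genes of the inner kinetochore, 4 of the Ndc80 complex, 4 of the Mis12 complex, 3 of the Ska complex, 4 of the chromosomal passenger complex, 2 large proteins of the outer kinetochore corona (CENPE and CENPF) and the centriole gene CENPJ.

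RNA was sequenced from LNCaP, a human prostate cancer line that responds to androgen, with 10 groups of 3 libraries each. In the pLKO experiment, cells received the pLKO control or a short hairpin RNA (shRNA) against USP7 (labelled shUSP7-1), BUB3 or FOXA1, and RNA was taken after 5 days. USP7 removes ubiquitin from proteins, BUB3 belongs to the mitotic checkpoint, and FOXA1 is a transcription factor that opens chromatin for the androgen receptor. In the siRNA experiment, cells received a control small interfering RNA (siCtrl) or one against EZH2, the methyltransferase subunit of Polycomb repressive complex 2, for 4 days. In the pGIPZ experiment, cells received the pGIPZ control, an shRNA against FOXA1 (labelled shFoxA1), or that shRNA with a re-expressed FOXA1, either wild type (shFoxA1 WT) or carrying the K295A substitution (shFoxA1 K295A), for 5 days. The sample range for which the protocol gives that day leaves out K295A replicate 3. The forms re-expressed are named HA-FOXA1 and HA-295A in the protocol. Every group is the same cell line. Whether the 3 libraries of a group came from separate cultures is not labelled, and p-values therefore measure only the spread between these libraries.

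The kinetochore is the protein assembly that joins each chromosome to spindle microtubules in mitosis. It is built on nucleosomes holding the histone variant CENP-A, which HJURP deposits after mitosis with the help of the Mis18 proteins. An inner layer of CENP proteins binds this chromatin, the Mis12 complex links it to the Ndc80 complex, and the Ndc80 and Ska complexes hold the microtubule. The chromosomal passenger complex, whose kinase is Aurora B, releases wrong attachments. Many of these genes are transcribed mainly in the G2 phase and mitosis, and the DREAM and MuvB complexes repress such genes through a promoter element called the cell cycle genes homology region (CHR). Their RNA is therefore abundant in dividing cells and low in resting ones.

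RefSeq promoter windows (GRCh38.p14, 250 bases before to 50 after the start) were matched for 28 of the 34 genes, and 14 of these (50%) held a CHR word, TTTGAA or TTCGAA, against 16.6% of 27305 promoters. In the last 100 bases of the window the word occurred in 13 (46.4%) against 5.05% of all. A CCAAT box (CCAAT) occurred in 17 (60.7%) against 35.7%, and an E2F word (TTCCCGC, also as part of TTTCCCGC, or else the word TTTGGCGC, or the word TTCGCGC) in 9 (32.1%) against 9.16%. All words were searched on both strands, and they are matches of letters, not tested sites. The 30-base stretches below are shown because they hold the word in genes from different roles that the results turn on. Among them is CENPN, which fell with most others after shUSP7, shBUB3 and siEZH2 but rose with shFOXA1 and shFoxA1. The word is in capitals, and TTCAAA is TTTGAA read on the other strand.
CENPA: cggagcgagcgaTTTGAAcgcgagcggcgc
OIP5: gcctggcgtgtaTTCGAAaggaaggcgccg
NUF2: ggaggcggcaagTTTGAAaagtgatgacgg
SKA3: ccggcgccgagaTTCAAActagtggcggga
CDCA8: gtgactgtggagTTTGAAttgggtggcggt
CENPF: ccggtggcggctgcgggcagTTTGAAttag
CENPN: gcaattggtggcTTTGAAggcgcggcgagc
On GRCh38.p14 these lie at chr2:26786026-26786055 (plus strand) for CENPA, chr15:41332573-41332602 (minus) for OIP5, chr1:163321958-163321987 (plus) for NUF2 and chr13:21176538-21176567 (minus) for SKA3. The others lie at chr1:37692481-37692510 (plus) for CDCA8, chr1:214603215-214603244 (plus) for CENPF and chr16:81007205-81007234 (plus) for CENPN. Relative to the RefSeq start, the first base of the word lies at -18 in CENPA, 17 in NUF2, 41 in CENPF and 4 in CENPN.

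The deposited values are FPKM in the pLKO and siRNA experiments and RPKM in the pGIPZ experiment, both scaled for gene length and sequencing depth, so levels can be compared between genes within a table. Relative depth, recovered from the steps of low values, ranged from 0.602 to 1.30 among the FPKM libraries and from 0.847 to 1.30 among the RPKM libraries. The 8 luminal prostate markers summed to 2246 to 2296 FPKM per library in pLKO, 2239 to 2337 in siCtrl and 2541 to 2582 RPKM in pGIPZ, while immune markers reached at most 0.495 and basal markers at most 7.50 in any library. The RNA that each agent targets fell in the labelled group: USP7 went from 28.2 to 6.21 FPKM, BUB3 from 36.3 to 3.99956, FOXA1 from 116 to 58.96, EZH2 from 12.6 to 4.98, and FOXA1 from 132 to 82.5 RPKM with shFoxA1. In GENCODE 29, exons of 13 of the 34 members overlap those of another gene in the tables, on the opposite strand in 11 and on the same strand in CENPA (SLC35F6) and PMF1 (PMF1-BGLAP). The 11 are HJURP, OIP5, CENPL, CENPN, CENPO, CENPP, CENPU, CENPT, NUF2, SPC24 and MIS12. Whether counting used strand is not given in the sources used here, so shared reads could enter the values of all 13. Replicate 3 of shBUB3 had the highest FPKM sum of its experiment, 367614 against 235344 to 306578 in the others.

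In control cells the members spanned a wide range of levels. CENPN (47.2 ± 2.0 FPKM, SD, n = 3) and CENPB (43.3 ± 1.1) stood highest in the pLKO control, followed by BIRC5 (30.4 ± 1.00) and SPC24 (23.8 ± 0.70). SKA1 (2.03 ± 0.19) and CENPP (0.696 ± 0.13) stood lowest. In the siCtrl group the first 3 places were the same, and in pGIPZ CENPB (58.1 ± 1.2 RPKM) stood above CENPN (35.8 ± 1.1). Many neighbours in this order were closer than their SD, such as NDC80, NUF2 and OIP5, at 14.99 ± 0.81, 14.9 ± 0.83 and 14.9 ± 0.78 FPKM in pLKO.

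Knockdown of USP7, BUB3 or FOXA1 in the pLKO experiment was accompanied by a large fall of most members. The median member kept 15.6% of its control level after shUSP7, 15.8% after shBUB3 and 13.7% after shFOXA1, over all 34. Values under 10% of control were reached by 12, 15 and 15 of the 34, in that order. Changes are log2 fold changes ± standard error on the log2(value + 1) scale, which understates the change of low genes, and a gene is called when limma's adjusted p is under 0.05. After shUSP7, 30 of the 33 members tested were called lower and 0 higher, where 33.0% of the 12524 genes tested were lower and 29.1% higher. After shBUB3, 30 were lower and 1 higher (all genes, 32.0% and 33.3%). After shFOXA1, 29 were lower and 2 higher (45.1% and 25.2%). The member medians were -2.03, -1.98 and -2.11, beside -0.02, 0.01 and -0.15 over all genes tested. CENPP, at 0.572, 0.692 and 0.823 FPKM in pLKO, was left out by the filter, which asks for 3 or more libraries with a value of 1 or more. CENPA, HJURP, CENPW, SPC25, SKA1, SKA3, CENPE and CENPJ passed that filter only through the control libraries, so these 8 had to differ. Knockdown and control libraries did not overlap in 31 of 33 members after shUSP7 (76.6% of all genes), 31 after shBUB3 (66.6%) and 31 after shFOXA1 (79.4%). With no filter, so that all 34 were tested, 30, 31 and 30 were lower and 0, 1 and 2 higher. Over all genes 9062, 9061 and 10703 were then called, of which 44.5%, 48.2% and 40.7% were higher. The 3 comparisons share their control libraries. For shFOXA1, median-ratio scaling moved the all-gene median by 0.14 and the percentage of called genes that rose from 35.9% to 48.4%. Under it 8703 of all genes were called, and the members' counts stayed at 29 and 2.

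**Figure D1:**
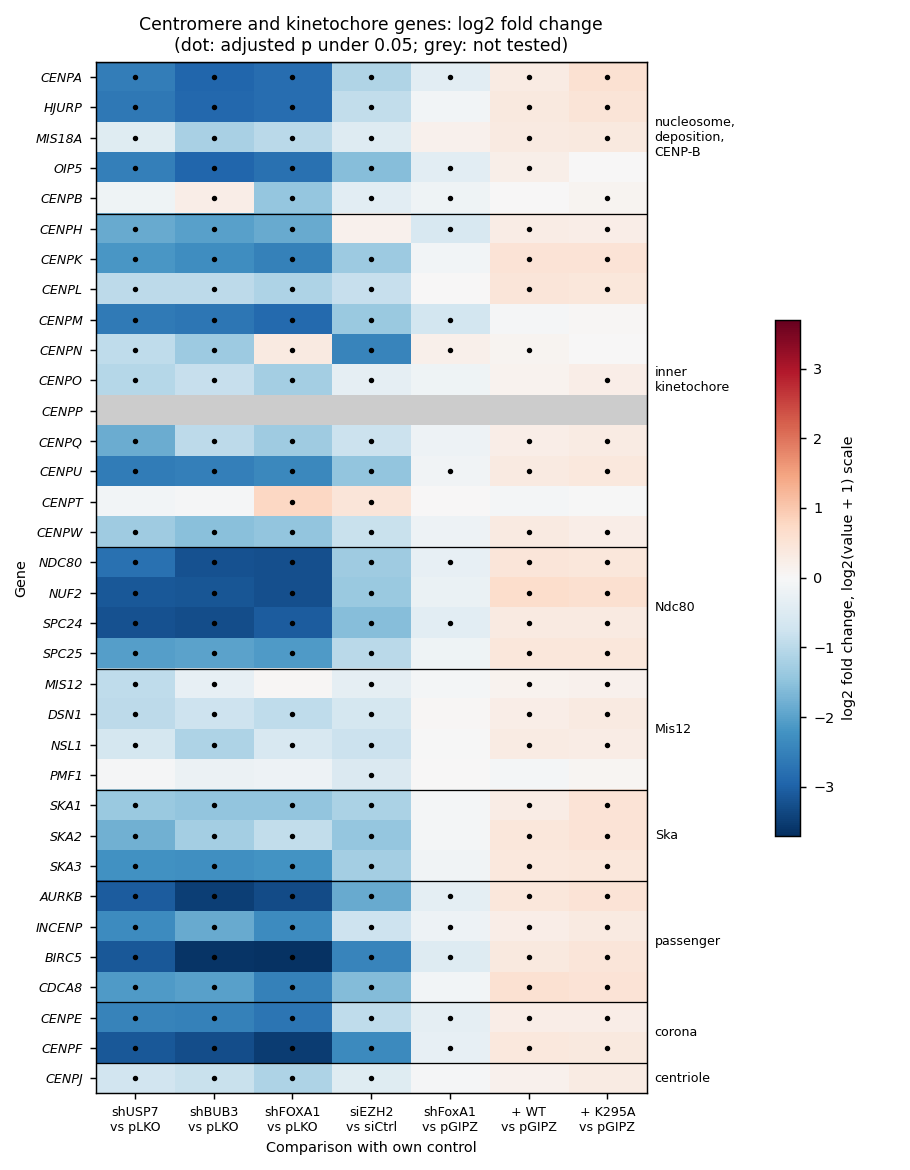
Log2 fold change of each member (rows, by role) in the 7 comparisons with the own control (columns), on the log2(value + 1) scale. Dots mark adjusted p under 0.05 and grey marks CENPP, which was not tested. Blue fills most rows of the first 4 columns, and the last 2 columns are mostly pale red.

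Of the nucleosome and deposition genes, CENPA, HJURP and OIP5 kept little of their RNA. CENPA, the centromeric histone H3 variant, was at 8.78, 9.03 and 8.76 FPKM in pLKO. It was at 0.494, 0.733 and 0.784 after shUSP7, 0.275, 0.256 and 0.371 after shBUB3 and 0.493, 0.428 and 0.284 after shFOXA1. No knockdown library came near the control libraries, and the changes were -2.56 ± 0.08 (adjusted p = 4.4e-10), -2.92 ± 0.08 (adjusted p = 1.4e-10) and -2.82 ± 0.08 (adjusted p = 1.3e-10). HJURP, the chaperone that deposits CENP-A, went from 9.29, 10.6 and 10.2 FPKM to 0.664, 0.892 and 0.730 after shUSP7, 0.415, 0.562 and 0.457 after shBUB3 and 0.494, 0.576 and 0.667 after shFOXA1. Its changes were -2.65 ± 0.08, -2.90 ± 0.08 and -2.80 ± 0.08. CENPA and HJURP passed the low-value filter only through the control libraries, so as tested genes they had to differ from control. OIP5 (Mis18-beta), which brings HJURP to the centromere, fell to 11.8%, 7.67% and 8.99% of control. MIS18A, its partner in that complex, fell less, to 69.9%, 38.1% and 45.4%.

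**Figure D2:**
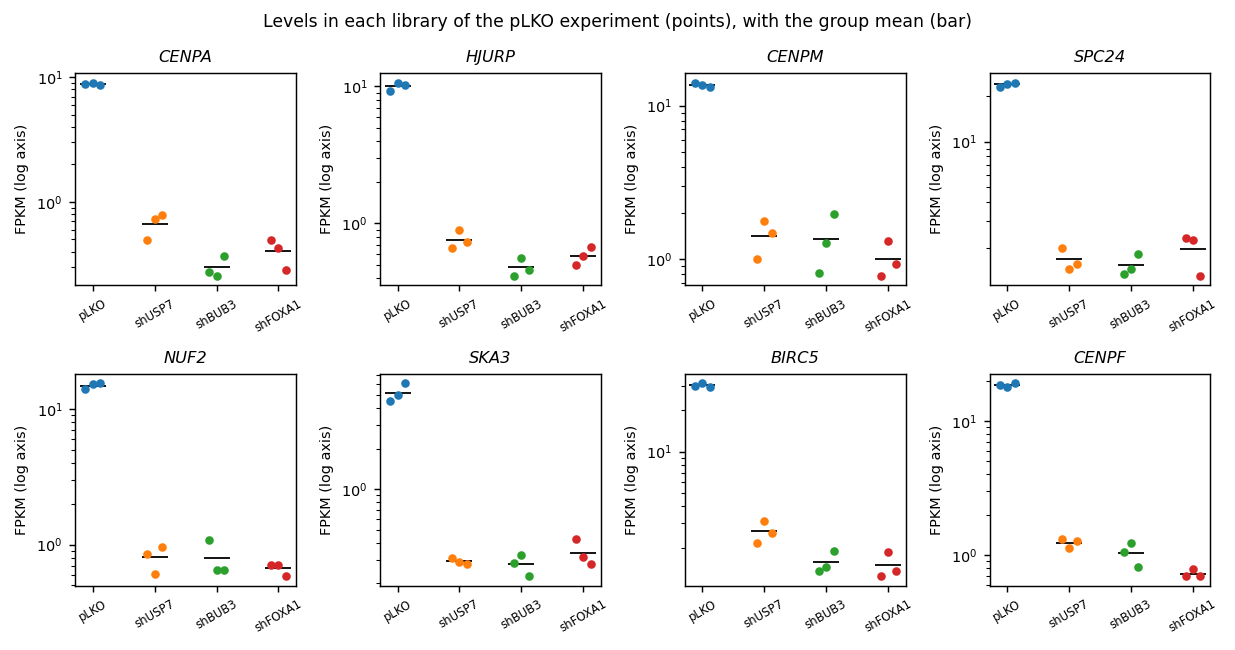
FPKM (log axes) of 8 members in each library of the pLKO experiment, with points for libraries and bars for group means. In all 8 panels the 3 control points lie above every knockdown point. For CENPA, HJURP and SKA3, which passed the filter only through the control libraries, that order was fixed by the filter.

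Inner kinetochore genes ranged more widely, with a median of 23.1%, 37.0% and 28.1% of control over the 11 after shUSP7, shBUB3 and shFOXA1. Of the 10 tested, 9, 9 and 8 were lower, among them CENPW, which passed the filter only through the control libraries. CENPM showed the largest change of the role in each of these comparisons. Its levels were 14.1, 13.6 and 13.2 FPKM in pLKO, 1.001, 1.77 and 1.48 after shUSP7, 0.811, 1.27 and 1.98 after shBUB3 and 0.783, 1.32 and 0.927 after shFOXA1. The groups did not overlap with control, and the changes were -2.61 ± 0.17, -2.67 ± 0.17 and -2.87 ± 0.17. CENPU and CENPQ belong to one subcomplex with CENPO and CENPP, yet CENPU fell to 12.4%, 13.2% and 15.1% of control and CENPQ to 16.9%, 43.7% and 31.5%. CENPH and CENPK, which bind each other, stood at 23.1% and 13.9% after shUSP7, 20.2% and 11.5% after shBUB3, and 23.4% and 8.54% after shFOXA1. CENPW, the histone-fold partner of CENP-T, fell to 18.6%, 9.83% and 12.99%, while CENPT itself was called lower in 0 of these comparisons. CENPL fell to 36.3%, 36.98% and 29.5% of control, and CENPO to 35.9%, 45.1% and 28.1%. CENPP, not tested, was at 0.644, 0.532 and 0.366 FPKM after shUSP7, 0.389, 0.400 and 0.314 after shBUB3 and 0.249, 0.407 and 0.471 after shFOXA1.

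The Ndc80 complex, the microtubule coupler of the outer kinetochore, had all 4 subunits lower after each knockdown, at a median of 6.41%, 5.89% and 4.50% of control. Of these, SPC25 passed the filter only through the control libraries. SPC24 and SPC25 form the end that faces the chromosome, NDC80 and NUF2 the end that binds the microtubule. SPC24 was at 22.97, 23.98 and 24.3 FPKM in pLKO, 2.02, 1.45 and 1.58 after shUSP7, 1.35, 1.45 and 1.83 after shBUB3 and 2.34, 2.27 and 1.32 after shFOXA1. It changed by -3.21 ± 0.13 (adjusted p = 3.1e-09), -3.29 ± 0.13 (adjusted p = 2.3e-09) and -3.07 ± 0.13 (adjusted p = 2.6e-09). NUF2 was at 14.01, 15.3 and 15.6 FPKM in pLKO, 0.852, 0.602 and 0.954 after shUSP7, 1.08, 0.643 and 0.645 after shBUB3 and 0.708, 0.703 and 0.586 after shFOXA1, again far below control. Its changes of -3.15 ± 0.10, -3.16 ± 0.10 and -3.26 ± 0.10 lay close to those of NDC80, -2.77 ± 0.09, -3.24 ± 0.09 and -3.25 ± 0.09.

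The Mis12 complex, which bridges the inner kinetochore and Ndc80, kept the most RNA of the 8 roles. Its 4 genes had a median of 49.3%, 66.4% and 70.3% of control, and 3, 3 and 2 were lower. DSN1 was at 6.78, 7.67 and 6.76 FPKM in pLKO, 2.97, 3.03 and 3.27 after shUSP7, 3.23, 3.72 and 4.29 after shBUB3 and 3.13, 3.25 and 3.36 after shFOXA1. The knockdown libraries all lay below control, with changes of -0.98 ± 0.08, -0.77 ± 0.08 and -0.93 ± 0.08. NSL1 was at 2.69, 2.87 and 2.69 FPKM in pLKO, 1.37, 1.37 and 1.44 after shUSP7, 0.645, 0.702 and 0.729 after shBUB3 and 1.53, 1.42 and 1.57 after shFOXA1. It was lowest after shBUB3, with changes of -0.65 ± 0.06, -1.15 ± 0.06 and -0.58 ± 0.06. PMF1 was not called in any of these comparisons, at 95.7%, 84.2% and 85.99% of control with overlapping groups. Exons of PMF1 are shared with the read-through gene PMF1-BGLAP, so its reads may be split between them.

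The Ska complex, which tracks microtubule ends with Ndc80, was lower in all 3 subunits after each knockdown. SKA3 was at 4.49, 4.997 and 6.12 FPKM in pLKO, 0.306, 0.291 and 0.281 after shUSP7, 0.286, 0.326 and 0.227 after shBUB3 and 0.426, 0.314 and 0.278 after shFOXA1. The changes were -2.25 ± 0.09, -2.27 ± 0.09 and -2.20 ± 0.09, with all knockdown libraries below the lowest control. SKA3 and SKA1 passed the filter only through the control libraries, so they had to differ from control. SKA1 fell to 8.14%, 5.33% and 5.02% of its low control level. SKA2 kept more of its RNA, 24.2%, 37.99% and 49.5%.

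All 4 chromosomal passenger genes fell in all 3 comparisons. BIRC5 (survivin), which recruits the complex to centromeres, was at 30.2, 31.5 and 29.5 FPKM in pLKO, 2.16, 3.14 and 2.55 after shUSP7, 1.34, 1.45 and 1.88 after shBUB3 and 1.24, 1.86 and 1.35 after shFOXA1. Its changes were -3.12 ± 0.12 (adjusted p = 1.4e-09), -3.62 ± 0.12 (adjusted p = 3.6e-10) and -3.67 ± 0.12 (adjusted p = 2.4e-10), and the groups were far apart. AURKB, which encodes the Aurora B kinase, fell to 6.87%, 3.95% and 5.23% of control. INCENP, the scaffold, kept 14.6%, 23.05% and 14.5%, and CDCA8 (borealin) kept 16.7%, 18.5% and 10.8%.

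CENPF, a coiled-coil protein that gathers at kinetochores in G2, was at 18.7, 18.03 and 19.1 FPKM in pLKO, 1.31, 1.14 and 1.27 after shUSP7, 1.06, 1.24 and 0.820 after shBUB3 and 0.700, 0.785 and 0.699 after shFOXA1. It changed by -3.13 ± 0.08, -3.27 ± 0.08 and -3.51 ± 0.08. CENPE, the kinesin motor that moves chromosomes to the spindle equator, fell to 9.32%, 8.80% and 6.28% of control. CENPJ, a centriole assembly protein and not part of the kinetochore, also fell. Its levels were 2.21, 2.01 and 2.11 FPKM in pLKO, 0.909, 0.935 and 0.915 after shUSP7, 0.862, 0.839 and 0.566 after shBUB3 and 0.451, 0.376 and 0.397 after shFOXA1, with changes of -0.70 ± 0.07, -0.83 ± 0.07 and -1.14 ± 0.07. CENPE and CENPJ passed the filter only through the control libraries, so they too had to differ from control.

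Direct tests between knockdowns called fewer members. Between shUSP7 and shBUB3, 7 of 33 members were lower and 10 higher with shUSP7, where 36.2% of all genes were lower and 29.0% higher. The largest were CENPQ, at 1.12 against 2.89 FPKM (-0.88 ± 0.08, adjusted p = 1.6e-06), and MIS18A, at 7.34 against 4.004 (0.74 ± 0.09, adjusted p = 3.3e-05). The shFOXA1 group was lower than shUSP7 for 11 members and higher for 6 (all genes, 42.9% and 28.1%). Against shBUB3 it was lower for 8 and higher for 5 (45.8% and 27.6%), or lower for 6 and higher for 9 under median-ratio scaling. That scaling moved the all-gene median by 0.11, and 9162 of all genes were called under it, 46.7% of them higher. CENPN, CENPB, CENPT, MIS12 and SKA2 held the largest differences from shUSP7, and the calls for CENPN, CENPT, MIS12 and SKA2 were higher with shFOXA1. The 33 members' median difference was -0.16 for shFOXA1 minus shUSP7 and -0.01 for shFOXA1 minus shBUB3.

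A few members ran against the rest. CENPN, which reads the CENP-A nucleosome directly, was the highest member in pLKO at 46.3, 49.5 and 45.7 FPKM. It fell to 23.9, 24.3 and 23.8 after shUSP7 and 18.04, 17.96 and 17.5 after shBUB3, but stood at 60.9, 60.2 and 58.5 after shFOXA1, above every control library. The changes were -0.95 ± 0.04 (adjusted p = 7.3e-09), -1.35 ± 0.04 (adjusted p = 3.4e-10) and 0.34 ± 0.04 (adjusted p = 2.6e-05), and the direct differences of shFOXA1 from shUSP7 and shBUB3 were 1.28 ± 0.04 (adjusted p = 5.9e-10) and 1.69 ± 0.04 (adjusted p = 6e-11). CMC2, the gene whose exons overlap CENPN, looked up after the values of CENPN were seen, was at 52.2 ± 3.6 FPKM in pLKO and 28.7 ± 2.4 after shFOXA1, a change of -0.84 ± 0.12 (adjusted p = 7.7e-05).

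CENPT, the inner kinetochore protein that recruits Ndc80 on its own, was at 17.8, 19.4 and 17.6 FPKM in pLKO, 16.04, 16.6 and 17.8 after shUSP7, 16.96, 16.1 and 20.1 after shBUB3 and 30.1, 31.3 and 33.5 after shFOXA1. Only the shFOXA1 libraries stood apart from control, with a change of 0.76 ± 0.08 (adjusted p = 4e-06). The direct differences of shFOXA1 from the other knockdowns were 0.87 ± 0.08 (adjusted p = 1.2e-06) and 0.81 ± 0.08 (adjusted p = 2.1e-06). The exons of CENPT overlap those of TSNAXIP1, THAP11 and NUTF2, and those of MIS12 overlap DERL2. The part of shared reads in the values of CENPT and MIS12 was not tested. CENPB, which binds a motif in centromeric satellite DNA, was at 44.4, 43.5 and 42.2 FPKM in pLKO, 38.1, 39.4 and 39.03 after shUSP7, 47.9, 48.02 and 61.1 after shBUB3 and 14.4, 16.96 and 15.4 after shFOXA1. It fell after shFOXA1 (-1.42 ± 0.09, adjusted p = 4.6e-08), rose after shBUB3 (0.26 ± 0.09, adjusted p = 0.022) and changed by -0.15 ± 0.09 (adjusted p = 0.14) after shUSP7. The rise after shBUB3 lost its call without pLKO replicate 3 (0.24, adjusted p = 0.066) and when those groups were fitted alone (adjusted p = 0.067). MIS12 was at 10.9, 13.1 and 11.95 FPKM in pLKO, 6.27, 4.96 and 5.98 after shUSP7, 9.01, 10.6 and 9.10 after shBUB3 and 11.6, 12.4 and 12.99 after shFOXA1. It fell after shUSP7 (-0.95 ± 0.09, adjusted p = 3.3e-06) and shBUB3 (-0.30 ± 0.09, adjusted p = 0.013), the latter not called without pLKO replicate 2 (-0.23, adjusted p = 0.061), and not after shFOXA1 (0.04 ± 0.09, adjusted p = 0.69).

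**Figure D3:**
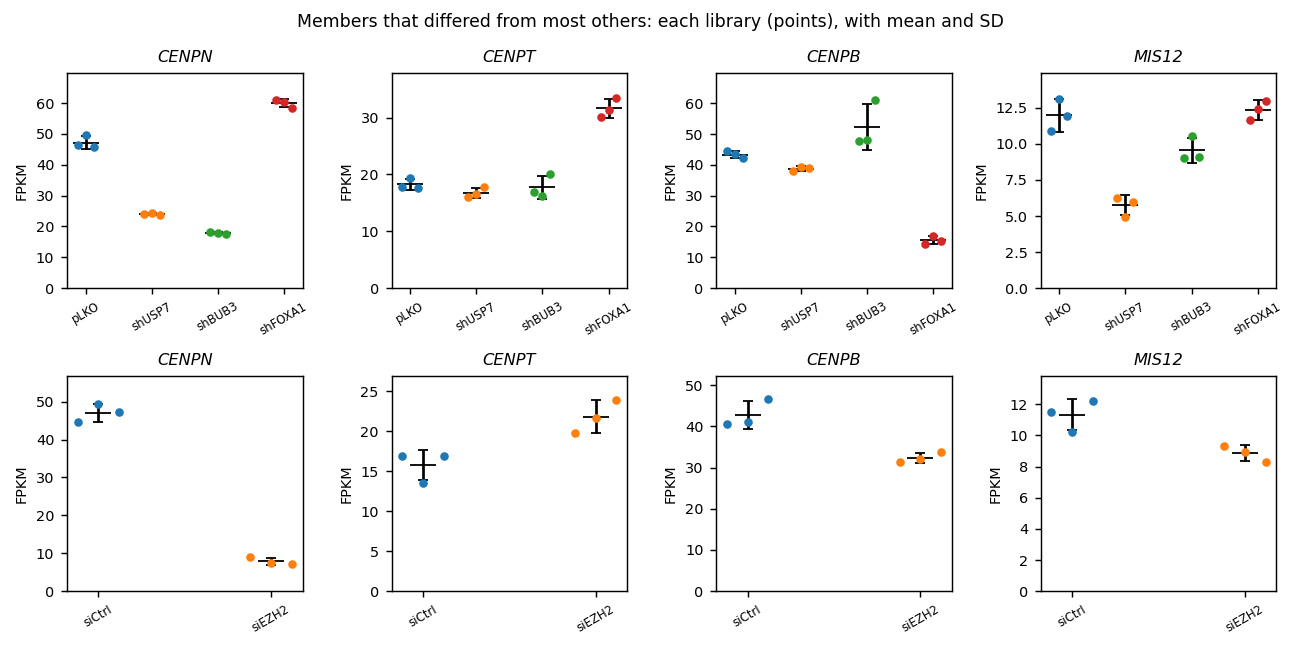
FPKM of CENPN, CENPT, CENPB and MIS12 in each library (points) of the pLKO experiment (top row) and the siRNA experiment (bottom row), with mean and SD. CENPN and CENPT are highest after shFOXA1 and CENPB is lowest there, whereas after siEZH2 CENPN is far below its control.

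Knockdown of EZH2 lowered most members by a smaller amount. The median over the 34 was 41.5% of siCtrl, and 0 members were under 10% of control, while 22 were under 50%. Of 33 tested, 31 were called lower and 1 higher, where 43.0% of the 11908 genes tested were lower and 20.3% higher. The member median was -0.99 beside -0.16 over all genes. Groups did not overlap in 32 of 33 members (68.0% of all genes). SKA1 passed the filter only through the control libraries, and with no filter 30 of 34 were lower and 1 higher. Over all genes 7841 were then called, 35.6% of them higher. Median-ratio scaling moved the all-gene median by 0.13 and the percentage of called genes that rose from 32.1% to 45.8%, of 7470 called under it. With this scaling 30 members were lower and 2 higher (CENPT, and CENPH at 0.29 with adjusted p = 0.049).

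The nucleosome role was led by OIP5, at 12.1, 12.9 and 13.7 FPKM in siCtrl and 3.84, 3.82 and 3.46 after siEZH2, a change of -1.56 ± 0.08 (adjusted p = 2.5e-07). CENPA fell to 39.5% of control and HJURP to 49.6%. CENPN showed the largest change of the inner kinetochore here. Its levels were 44.7, 49.4 and 47.2 FPKM in siCtrl and 8.92, 7.48 and 7.22 after siEZH2, with no overlap (-2.44 ± 0.09, adjusted p = 4.3e-08), and its neighbour CMC2 also fell (-1.55 ± 0.09, adjusted p = 5e-07). CENPH, in contrast, was at 7.43, 8.13 and 8.97 FPKM in siCtrl and 10.6, 9.75 and 7.51 after siEZH2, with overlapping groups and 0.15 ± 0.12 (adjusted p = 0.28). CENPT rose, from 16.9, 13.6 and 16.9 to 19.8, 21.7 and 23.9 FPKM (0.45 ± 0.10, adjusted p = 0.0032).

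Among the outer kinetochore genes, SPC24 went from 20.96, 22.8 and 23.3 FPKM in siCtrl to 8.09, 6.74 and 5.76 after siEZH2 (-1.58 ± 0.11, adjusted p = 1.1e-06). All 4 Mis12 genes were lower. NSL1 led them, at 3.32, 3.60 and 3.46 FPKM in siCtrl and 1.63, 1.64 and 1.42 after siEZH2 (-0.80 ± 0.09, adjusted p = 3.2e-05), and PMF1, not called in the pLKO comparisons, fell to 65.7% of control (-0.54 ± 0.07, adjusted p = 0.00013). MIS12 fell to 78.3%, a call not kept under median-ratio scaling (-0.18, adjusted p = 0.079). SKA2 fell from 15.9, 15.99 and 15.7 to 6.64, 4.82 and 4.35 FPKM (-1.44 ± 0.12, adjusted p = 4.1e-06). BIRC5 fell from 23.7, 28.7 and 27.98 to 4.33, 3.78 and 4.10 FPKM (-2.45 ± 0.09, adjusted p = 4.3e-08), the largest change of any member here. CENPF fell from 18.4, 19.8 and 16.3 to 3.58, 2.48 and 2.28 FPKM (-2.35 ± 0.13, adjusted p = 3e-07). CENPJ was at 2.49, 2.32 and 2.07 FPKM in siCtrl and 1.90, 1.38 and 1.07 after siEZH2 (-0.44 ± 0.13, adjusted p = 0.014), and was not called when no filter was applied (adjusted p = 0.056). In SPC24, NSL1, SKA2, BIRC5, CENPF and CENPJ every siEZH2 library lay below every control library.

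Across the 33 members, the siEZH2 changes and those of the pLKO knockdowns had Pearson's r of 0.65 with shUSP7, 0.68 with shBUB3 and 0.56 with shFOXA1. The shFoxA1 changes in pGIPZ had r of 0.69 with shUSP7, 0.64 with shBUB3, 0.72 with shFOXA1 in pLKO and 0.22 with siEZH2. The changes also had r with the log2 control level, of -0.43 for siEZH2, -0.29 for shUSP7, -0.27 for shBUB3, -0.21 for shFOXA1 and -0.22 for shFoxA1. A correlation over all genes is not given here. These are descriptions over genes whose values share the same libraries, with no p-value.

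**Figure D4:**
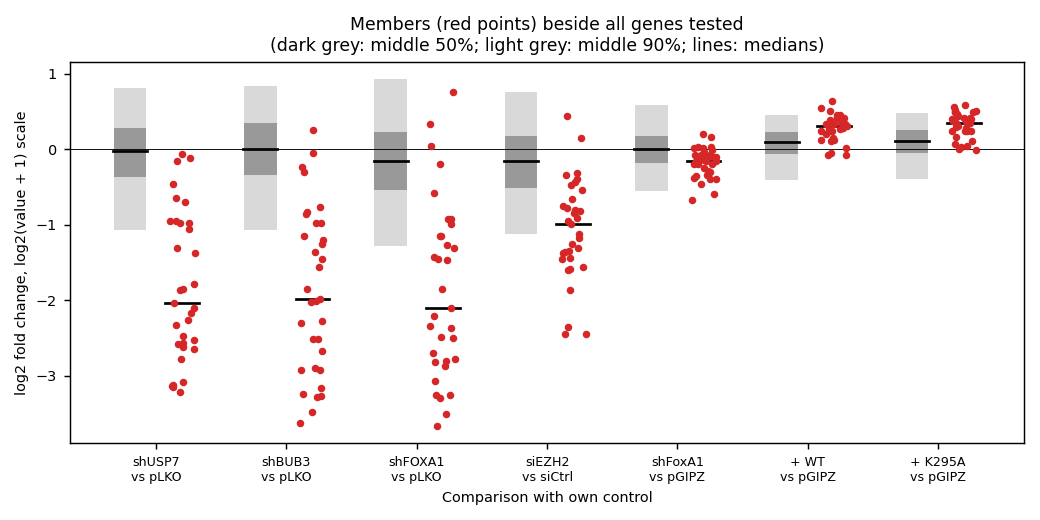
Log2 fold changes of the members (red points) beside all genes tested (grey bars for the middle 50% and 90%, lines for medians) in the 7 comparisons with the own control. In the first 3 the member median is near -2, in siEZH2 near -1, and in the last 3 close to 0 or above it.

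In the pGIPZ experiment the FOXA1 shRNA changed the members far less. The median over the 34 was 90.1% of pGIPZ. Of 33 tested, 13 were called lower and 1 higher, beside 24.2% lower and 25.0% higher of the 12563 genes tested. The member median was -0.15, beside 0.00 over all genes, and groups did not overlap in 16 of 33 members (56.4% of all genes). The 2 FOXA1 comparisons come from separate vectors, controls and tables, and the labels do not say whether the shRNA is the same. FOXA1 RNA itself stood at 58.96 against 116 FPKM in the pLKO experiment and at 82.5 against 132 RPKM here.

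CENPA was at 7.44, 6.17 and 6.72 RPKM in pGIPZ and 4.86, 5.14 and 4.78 with shFoxA1 (-0.39 ± 0.11, adjusted p = 0.012). OIP5 was at 14.6, 15.98 and 14.3 RPKM in pGIPZ and 11.97, 10.1 and 11.5 with shFoxA1 (-0.39 ± 0.07, adjusted p = 0.00048). The libraries of both genes were separate, whereas HJURP overlapped, at 9.14, 8.91 and 8.22 in pGIPZ and 7.88, 7.84 and 8.82 with shFoxA1. CENPM had the largest fall of any member, from 17.9, 16.7 and 17.9971 to 10.1, 10.9 and 10.8 RPKM (-0.68 ± 0.06, adjusted p = 2.6e-06), and CENPH followed at 64.4% of control (-0.58 ± 0.08, adjusted p = 0.00012). SPC24 was at 24.2, 22.2 and 23.1 RPKM in pGIPZ and 21.2, 15.7 and 16.3 with shFoxA1 (-0.38 ± 0.12, adjusted p = 0.02), a call lost without pGIPZ replicate 1 (-0.35, adjusted p = 0.062), shFoxA1 replicate 2 (-0.30, adjusted p = 0.081) or shFoxA1 replicate 3 (-0.33, adjusted p = 0.073). BIRC5 fell from 27.6, 27.8 and 27.7 to 20.5, 19.3 and 19.7 RPKM (-0.47 ± 0.03, adjusted p = 1.2e-07), and AURKB and INCENP were also lower. CENPE was at 5.59, 4.82 and 4.95 RPKM in pGIPZ and 3.69, 3.88 and 3.89 with shFoxA1 (-0.34 ± 0.05, adjusted p = 0.00026), and CENPF was lower too, at 79.8% of control. The Mis12 and Ska complexes had 0 called of 7 members. CENPN again rose where the others fell, from 35.98, 36.8 and 34.6 to 43.1, 39.8 and 40.9 RPKM (0.20 ± 0.04, adjusted p = 0.00057), and CMC2 was lower (-0.34 ± 0.06, adjusted p = 0.00075). CENPT was not called here (0.03 ± 0.04, adjusted p = 0.65).

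With wild-type FOXA1 re-expressed, most members stood above the pGIPZ control. The FOXA1 RNA level of the re-expressed groups is not given here, so these comparisons do not show how far FOXA1 was restored. Of 33 tested, 27 were called higher and 0 lower, where 33.7% of genes were higher and 11.8% lower. The member median was 0.31, beside 0.10 over all genes, and groups did not overlap in 27 members (53.6%). Median-ratio scaling moved the percentage of called genes that rose from 74.0% to 48.5%, of 4749 genes called under it. With this scaling 19 members were higher and 2 lower, CENPB at -0.09 and CENPT at -0.17. Against shFoxA1 alone, 28 were higher and 0 lower (all genes, 36.6% and 18.9%), and 26 higher and 2 lower (CENPN and CENPT) after scaling. Median-ratio scaling also moved the percentage of called genes that rose against shFoxA1 from 65.9% to 49.8%, of 6570 called under it.

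HJURP reached 11.3, 11.8 and 11.4 RPKM with the wild type (0.36 ± 0.05 against pGIPZ, adjusted p = 0.00024), above every control library. CENPK was at 5.58, 4.72 and 5.94 RPKM in pGIPZ, 5.30, 5.08 and 4.51 with shFoxA1 and 8.78, 8.23 and 7.32 with the wild type (0.51 ± 0.09, adjusted p = 0.0007). NUF2 had the largest rise of any member, from 10.9, 9.78 and 8.27 in pGIPZ and 7.73, 7.02 and 9.28 with shFoxA1 to 16.7, 14.9 and 15.02 RPKM (0.64 ± 0.10, adjusted p = 0.00034). NSL1 was at 2.17, 2.17 and 2.36 in pGIPZ, 2.19, 2.18 and 2.30 with shFoxA1 and 2.91, 3.06 and 3.02 RPKM with the wild type (0.31 ± 0.05, adjusted p = 0.00076). These 3 genes were higher with the wild type than in either other group. SKA2 was at 7.53, 7.34 and 6.34 in pGIPZ, 6.57, 6.72 and 6.68 with shFoxA1 and 9.63, 9.62 and 10.3 RPKM with the wild type (0.43 ± 0.06, adjusted p = 9.4e-05). CDCA8 was at 11.4, 9.32 and 10.05 in pGIPZ, 8.48, 10.0045 and 9.96 with shFoxA1 and 15.2, 16.1 and 15.2 RPKM with the wild type (0.55 ± 0.09, adjusted p = 0.00031). CENPF was at 10.1, 9.58 and 8.93 in pGIPZ, 7.71, 7.35 and 7.77 with shFoxA1 and 13.1, 12.9 and 12.5 RPKM with the wild type (0.39 ± 0.05, adjusted p = 3.6e-05). In each of these genes the wild-type libraries lay above all pGIPZ and shFoxA1 libraries. CENPM, CENPB, CENPO, CENPT, PMF1 and CENPJ were not called against pGIPZ, and CENPM stood at 16.6, 15.7 and 18.8 RPKM, overlapping its control. CENPN stood at 38.9, 39.2 and 38.2 RPKM (0.11 ± 0.04, adjusted p = 0.022), between pGIPZ and shFoxA1, and was at 0.01 under median-ratio scaling, with no call.

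Several of these calls were close to the threshold. Among the 27, 10 lost their call under at least 1 alternative. CENPA (0.30 ± 0.11, adjusted p = 0.044) lost its call without any 1 of the 3 wild-type libraries, pGIPZ replicate 2 or pGIPZ replicate 3, with adjusted p between 0.054 and 0.15. SPC24, CENPQ and MIS12 did likewise under several such settings.

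The K295A form gave a like pattern. Of 33 tested, 27 were higher than pGIPZ and 0 lower, where 37.8% of genes were higher and 12.8% lower. The member median was 0.35, beside 0.11 over all genes, and groups did not overlap in 27 members (57.7%). Median-ratio scaling moved the all-gene median by -0.10 and the percentage of called genes that rose from 74.7% to 49.4%, of 5142 called under it. With this scaling 19 members were higher and 2 lower, CENPN and CENPT, each at -0.12. Against shFoxA1 alone, 30 were higher and 1 lower (all genes, 38.7% and 18.3%), and the one lower was CENPN (-0.20 ± 0.04, adjusted p = 0.00049). After that scaling 28 were higher and 2 lower (CENPN and CENPT). The percentage of called genes that rose went from 67.9% to 49.3%, of 6626 called under it. CENPA was at 10.3, 8.69 and 12.7 RPKM (0.56 ± 0.11 against pGIPZ, adjusted p = 0.0013) and SKA1 at 2.17, 2.08 and 2.59, from 1.47, 1.27 and 1.19 in pGIPZ and 1.23, 1.22 and 1.14 with shFoxA1 (0.50 ± 0.08, adjusted p = 0.00037). NUF2 was at 15.1, 13.98 and 15.8 RPKM (0.59 ± 0.10, adjusted p = 0.00052) and CENPK at 7.99, 7.39 and 8.78 (0.50 ± 0.09, adjusted p = 0.00065). DSN1 was at 7.32, 6.54 and 8.06 in pGIPZ, 7.68, 7.08 and 7.65 with shFoxA1 and 9.12, 10.02 and 9.47 RPKM with K295A (0.35 ± 0.07, adjusted p = 0.0017). CDCA8 was at 15.6, 13.4 and 16.5 RPKM (0.52 ± 0.09, adjusted p = 0.00042), and CENPF at 12.5, 12.6 and 12.1 (0.35 ± 0.05, adjusted p = 7.1e-05). CENPM, CENPN, CENPT, OIP5, PMF1 and CENPJ were not called against pGIPZ, with CENPN at 36.8, 35.6 and 35.1 and OIP5 at 14.6, 16.3 and 14.9 RPKM. CENPB, called higher here (0.11 ± 0.03, adjusted p = 0.0075), was at -0.01 (adjusted p = 0.73) after median-ratio scaling. Among the 27, 9 lost their call under at least 1 alternative. CENPH, CENPW and SPC24 each did so under 6 settings, with no filter, under median-ratio scaling and without some single libraries. CENPH lost it without K295A replicate 2 or 3 or pGIPZ replicate 1 or 3, with adjusted p from 0.06 to 0.13. CENPW lost it without K295A replicate 1 or 3 or pGIPZ replicate 1 or 2, with adjusted p from 0.068 to 0.12. SPC24 lost it without K295A replicate 2 or 3 or pGIPZ replicate 2 or 3, with adjusted p from 0.054 to 0.12.

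Between the K295A and wild-type libraries, limma called 0 of the 33 members, at an all-gene share of 0.183% called (23 of 12563). Their libraries did not overlap in 8 members (16.0% of all genes). At an unadjusted p under 0.05 there were 7 members, and 1310 genes of all tested. The lowest adjusted p among the members was 0.26, for CENPB. The 95% intervals of the differences ran from -0.33 to 0.50, and 32 of 33 lay within 0.5 on the log2 scale either way. These intervals bound the differences that the libraries allow, and a lack of calls does not show that the forms act alike.

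**Figure D5:**
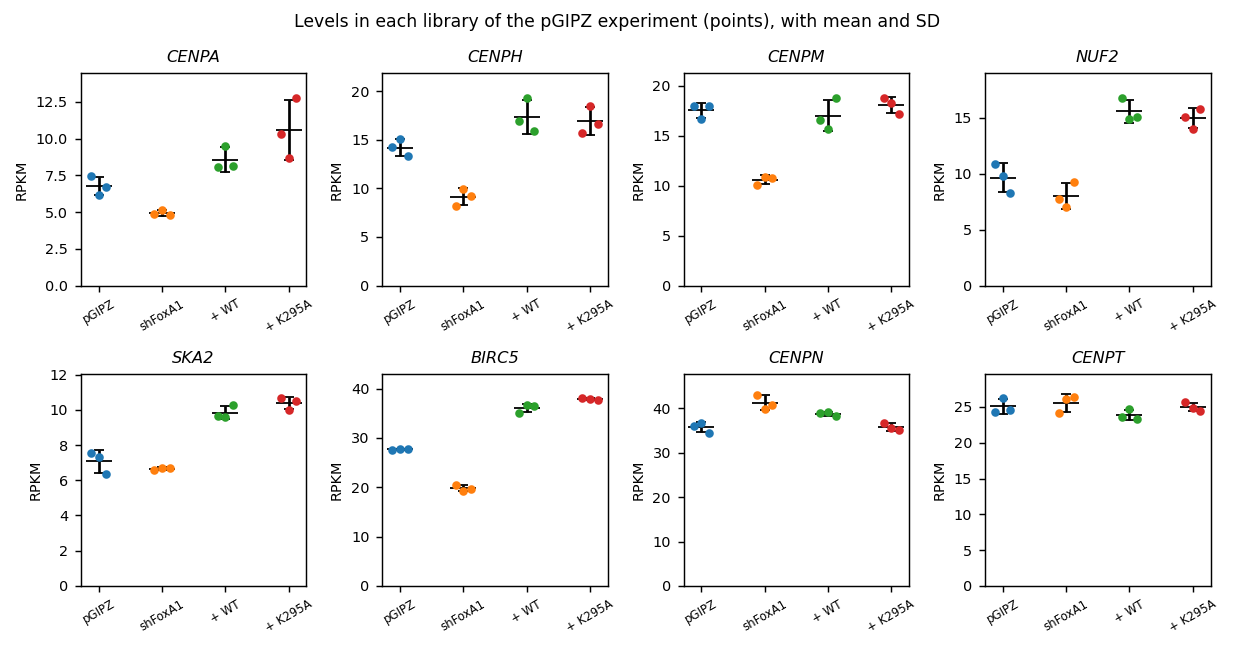
RPKM of 8 members in each library (points) of the pGIPZ experiment, with mean and SD. CENPA, CENPH, CENPM and BIRC5 dip with shFoxA1, all but CENPM then stand above pGIPZ with either re-expressed form, and CENPN peaks with shFoxA1.

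Other genes of the pathway moved with the members. Among 25 further kinetochore and checkpoint genes, 24 were tested in the pLKO experiment, and 20, 20 and 23 were lower and 1, 0 and 0 higher after shUSP7, shBUB3 and shFOXA1. Over all genes tested, 33.0%, 32.0% and 45.1% were lower and 29.1%, 33.3% and 25.2% higher. BUB3, the target of shBUB3, is in this list, so its fall in that group is part of the design. Which genes of this list, or of the marker and regulator lists below, passed the filter only through a single group is not given here. For any such gene, the difference of that group was fixed by the filter. PLK1, a mitotic kinase, went from 33.1 to 2.88, 2.10 and 2.51 FPKM. BUB1, a checkpoint kinase, went from 14.9 to 1.23, 0.714 and 0.461. After siEZH2, 23 of 25 were lower and 0 higher (all genes, 43.0% and 20.3%). With shFoxA1 in pGIPZ 13 of 25 were lower and 0 higher, and 19 and 22 were higher and 0 lower with the wild type and K295A. Of all genes tested in pGIPZ, 24.2% were lower with shFoxA1, and 33.7% and 37.8% were higher with the wild type and K295A.

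Markers of dividing cells moved the same way, and their part in the members' changes was not tested. The 7 markers MKI67, TOP2A, PCNA, MCM2, CCNB1, CCNA2 and CDK1 were all lower after shUSP7, shBUB3, shFOXA1 and siEZH2, 6 of 7 were lower with shFoxA1 in pGIPZ, and all 7 were higher with either re-expressed form. The all-gene shares called lower in these 5 comparisons were 33.0%, 32.0%, 45.1%, 43.0% and 24.2%. The shares called higher against pGIPZ were 33.7% with the wild type and 37.8% with K295A. Their sum per library was 222.9 to 230.2 FPKM in pLKO, 64.2 to 68.1 after shUSP7, 26.0 to 31.7 after shBUB3 and 37.3 to 41.3 after shFOXA1. MKI67, a protein of cycling cells, was at 14.1 ± 1.2 FPKM in pLKO and 1.25 ± 0.13, 0.633 ± 0.25 and 0.419 ± 0.082 in the knockdowns. In the siRNA experiment the sum went from 241 to 263 FPKM in siCtrl to 109 to 144 after siEZH2. In the pGIPZ experiment it was 190.4 to 197 RPKM in pGIPZ, 162 to 166 with shFoxA1, 251 to 259.6 with the wild type and 265 to 266 with K295A. In bulk RNA, fewer cells in G2 or mitosis and less RNA per such cell cannot be told apart.

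Markers of cell identity also moved with the groups, and their part in the members' changes was not tested. The luminal sum was 1209 to 1263 FPKM after shUSP7, 1538 to 1797 after shBUB3, 1635 to 1721 after shFOXA1 and 567 to 673 after siEZH2. It was 2208 to 2256 RPKM with shFoxA1, 1794 to 1841 with the wild type and 1732 to 1755 with K295A. After siEZH2 all 8 luminal markers were called lower, where 43.0% of all genes were. The sum of 4 stromal markers was 3.17 to 3.81 FPKM in siCtrl and 10.04 to 13.7 after siEZH2. Only 2 of the 4 passed the low-value filter, and these 2 were called higher, where 20.3% of all genes were. Whether they passed only through the siEZH2 libraries is not given here, and in that case the filter fixed the rise. The stromal sum was 4.08 to 4.26 FPKM in pLKO, 2.71 to 3.20 after shUSP7, 5.09 to 5.57 after shBUB3 and 4.01 to 4.96 after shFOXA1. The sum of 3 endothelial markers was 1.70 to 1.77 FPKM in pLKO, 4.28 to 4.62 after shUSP7, 2.91 to 3.46 after shBUB3 and 0.110 to 0.248 after shFOXA1. The sum of 3 basal markers was 2.61 to 2.69 RPKM in pGIPZ and 5.42 to 7.50 with shFoxA1.

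Regulators of the cell cycle differed between experiments. CDKN1A, which encodes the kinase inhibitor p21, rose from 93.4 ± 2.9 FPKM in pLKO to 904 ± 15 after shUSP7, 719 ± 52 after shBUB3 and 571 ± 8.2 after shFOXA1. After siEZH2 it fell instead, from 205 ± 7.0 to 89.4 ± 4.2 FPKM. It also fell from 188 ± 2.0 RPKM in pGIPZ to 108 ± 1.7 with the wild type and 100.5 ± 1.4 with K295A. The sum of 19 regulators, CDKN1A among them, was 423 to 426 RPKM per library in pGIPZ and 377 to 389 with shFoxA1 alone. It was 384 to 388 with the wild type and 394 to 399 with K295A. A sum over 19 genes does not show the level of CDKN1A itself with shFoxA1, which is not given here. MYBL2, an activator of G2 and mitosis genes, fell after shUSP7 (-3.58), shBUB3 (-3.23), shFOXA1 (-3.47) and siEZH2 (-2.01). FOXM1, its partner, changed by -2.95, -2.73, -3.16 and -1.67. Of the 19 regulators, 12, 13, 13 and 13 were lower and 4, 3, 3 and 3 higher in those comparisons. Over all genes tested, 33.0%, 32.0%, 45.1% and 43.0% were lower and 29.1%, 33.3%, 25.2% and 20.3% higher.

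Set beside the promoter words, the 14 members with a CHR word had median changes of -2.29, -2.14, -2.41 and -1.21 after shUSP7, shBUB3, shFOXA1 and siEZH2. The 13 tested members with a promoter window but no CHR word had -1.79, -1.15, -1.30 and -0.80. With and without a CCAAT box the medians were -2.16 and -1.22 after shUSP7, -2.003 and -1.30 after shBUB3, -2.37 and -1.44 after shFOXA1, and -1.35 and -0.87 after siEZH2. With and without an E2F word they were -1.85 and -2.21, -1.45 and -2.14, -1.46 and -2.41, and -1.13 and -1.10 in the same order. These are descriptions with no test, and a lower median was not particular to the CHR word. The ranges overlapped, since SPC24, with no CHR word in the window, changed by -3.21 after shUSP7 and NUF2, with one, by -3.15. CENPN holds a CHR word, a CCAAT box and an E2F word, and was the one member with a CHR word that rose after shFOXA1.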

How the data were processed

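RNA-seq of LNCaP cells had been summarised per gene. The pLKO and siRNA libraries are in a table of FPKM made by the authors, the pGIPZ libraries in the authors' table of RPKM, each with 26475 gene symbols, of which 32 have no values. Per the submitters' processing notes, STAR and hg38 were used; the STAR version, the counter, its strand setting and the annotation were not given in the sources used here. Per the labels' protocols, libraries were made from total RNA.

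The members and gene lists were chosen with earlier results of these data known. Groups came from the sample labels. Values were taken as log2(value + 1), genes at 1 or above in 3 or more libraries were kept, and limma 3.58.1 (R 4.3.3, moderated statistics with an intensity trend) was fitted once per experiment on all groups and all kept genes, for 13 comparisons in all. P-values were Benjamini-Hochberg adjusted over all genes tested, and a gene was called at an adjusted p under 0.05. A fold change of a low gene is understated on this scale. A permutation test of 3 against 3 libraries cannot go below p = 0.1, so none is given for single genes. Values are given library by library for the called member with the largest change in each role and comparison, and for called members that moved against most others; the remaining members are given by means or percent of control (ratio of means, with no pseudocount). On simulated data for shUSP7 against pLKO (12524 genes), 98.0% of 50 genes lowered by 1 on the log2 scale and 96.0% of 50 raised by 1 were recovered. These rates were 94.0% and 88.0% for siEZH2 against siCtrl, and 98.0% and 98.0% for shFoxA1 against pGIPZ. The simulation used normal noise and changed few genes, none of them low in the control. The rates therefore do not carry over to low members or to data in which most genes are called. Other settings tried were a pseudocount of 0.1, no filter, median-ratio scaling, a fit of the compared groups alone, a replicate block, and leaving out each library. Tables were made with Python 3.11.15, pandas 2.3.3, NumPy 2.4.6 and SciPy 1.17.1, and figures with matplotlib 3.10.9. Exon overlaps were read from GENCODE 29 and promoter windows from RefSeq.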

Additional observations from a re-analysis of the deposited data

How the results depend on the processing

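The number of members called, lower and higher together, stayed within 1.5 times its main value under each alternative tried, for each of the 13 comparisons. The split by direction could move under median-ratio scaling. For shFOXA1 against shBUB3 it went from 8 lower and 5 higher to 6 and 9. For the wild type against pGIPZ it went from 0 lower and 27 higher to 2 and 19. Of 3161 alternative values of members called in the main fit, 3014 kept their direction and call, and 146 kept their direction and lost the call. The remaining 1 reversed: CENPB with K295A against pGIPZ, at -0.013 under median-ratio scaling. Members called only under an alternative are not in this tally. Leaving out 1 library at a time gave 22 to 30 called members for shUSP7, 22 to 31 for shBUB3 and 23 to 31 for shFOXA1 against pLKO, 31 to 33 for siEZH2, and 13 to 17, 19 to 24 and 23 to 26 for shFoxA1, wild type and K295A against pGIPZ. The low end of the pLKO counts comes from the filter, since without 1 control library 8 members are no longer tested. With the replicate block, 30, 31, 31 and 32 members were called for shUSP7, shBUB3, shFOXA1 and siEZH2, 15, 24 and 28 for the pGIPZ comparisons, and 0 for K295A against the wild type. Deviations of same-numbered libraries from their group means had correlations of -0.18 to 0.13, beside -0.25 to 0.21 for different-numbered ones. With 3 libraries per group, these values cannot decide whether the numbers pair libraries. Between the re-expressed forms 0 members were called under each alternative tried.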
